A study of Mus musculus with 2 samples.

Results

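The 9 genes described here encode vascular endothelial growth factor (VEGF) ligands and the receptors that bind them: Vegfa, Vegfb, Vegfc and Pgf on the ligand side, and Kdr, Flt1, Flt4, Nrp1 and Nrp2 on the receptor side. They were taken by name from the 31053 genes of the deposited matrices, without use of their values. Small tumours grown under the skin from B16F10, a melanoma line of mouse origin, had been dissociated for single-cell RNA sequencing, and UMIs (unique molecular identifiers, 1 per captured transcript) were counted per gene and cell. The hosts were Atf4 WT/WT for the first library (called WT) and Atf4 Δ/Δ for the other (called KO), with 2 tumours pooled in each. Atf4 encodes a transcription factor of the integrated stress response. Hosts of both genotypes carried Rosa26::CreERT2, an inducible recombinase expressed throughout the body, and both received tamoxifen, while only the KO hosts carried the floxed Atf4 allele. The deletion concerns the host cells, and the injected melanoma cells kept Atf4 in both libraries. Per the labels, each library pooled male and female mice aged 11 weeks.

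Vegfa is the main signal for blood vessel growth and acts through Kdr (VEGFR2), the receptor that carries most of the endothelial response. Flt1 (VEGFR1) binds Vegfa, Vegfb and Pgf tightly, is cleaved or spliced into a soluble form that traps ligand, and signals weakly. Vegfc acts mainly through Flt4 (VEGFR3), best known in lymphatic vessels, while the neuropilins Nrp1 and Nrp2 are coreceptors that also bind class 3 semaphorins. Low oxygen induces Vegfa through hypoxia-inducible factors, and tumours are a classic setting of that response.

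The filters left 3861 WT and 3557 KO cells, with median depths of 3920 and 6279 UMIs. A cell was assigned to a class when it showed a minimum number of that class's marker genes, for instance 5 of 12 endothelial markers. This gave 1693 WT and 1826 KO melanoma-like cells, 185 and 224 CAF-like cells (cancer-associated fibroblasts), 822 and 659 macrophage-like cells, 294 and 173 monocyte-like cells, 61 and 21 endothelial-like cells, and 49 and 15 T/NK-like cells. A further 105 WT and 73 KO cells passed several gates, and 642 WT and 553 KO cells passed none. The libraries shared 10 barcodes, of which 1 was kept in both. Atf4 itself stood at 261 CPM (UMIs of the gene per 1000000 UMIs of the class) in WT and 43.1 CPM in KO CAF-like cells, at 179 and 42.9 CPM in macrophage-like cells, and at 227 and 211 CPM in melanoma-like cells. Although the labels name both sexes for each library, Y-linked genes had 0 UMIs in WT and 71 UMIs in KO CAF-like cells, and Xist stood at 603 and 192 CPM. With 1 library per genotype there is no test of genotype and no p-value, and host genotype, mouse sex and library cannot be told apart. Intervals in brackets are exact 95% intervals for counting error only.

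On GRCm38 with GENCODE vM21, Vegfa lies on chromosome 17 (46016993 to 46032369), Vegfb on 19 (6982473 to 6987651), Vegfc on 8 (54077606 to 54187096) and Pgf on 12 (85166635 to 85177790). Kdr (75932827 to 75978458) and Flt1 (147561604 to 147726011) lie on chromosome 5 and Flt4 on 11 (49609263 to 49652739). Nrp1 lies on chromosome 8 (128358604 to 128503363) and Nrp2 on 1 (62703285 to 62818695). All 9 are protein coding. Nrp1 overlaps the microRNA gene Mir1903, and Nrp2 overlaps Gm29083, on the opposite strand, and Gm37121, while the other 7 overlap no annotated gene. Counts are per gene, so the splice forms of Vegfa and the soluble form of Flt1 were not separated.

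The promoters of 4 members are shown because Vegfa and Pgf moved together with hypoxia genes in these cells and because Kdr and Flt1 shared the endothelial-like class. Each line holds the 250 bases before an annotated start, 5′ to 3′ on the gene's strand, from RefSeq on GRCm38.p6. Capitals mark ACGTG or GCGTG, the core of the site bound by hypoxia-inducible factors, and GGGCGG, the GC box, on either strand. No marked motif overlaps another in these 4 windows.
Vegfa (chr17:46032378-46032627, minus strand): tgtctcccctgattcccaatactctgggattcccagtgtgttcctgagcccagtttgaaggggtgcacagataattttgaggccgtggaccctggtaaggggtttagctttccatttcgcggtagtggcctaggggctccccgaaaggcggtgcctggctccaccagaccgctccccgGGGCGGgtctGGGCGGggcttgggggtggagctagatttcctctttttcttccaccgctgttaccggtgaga
Pgf (chr12:85177314-85177563, minus strand): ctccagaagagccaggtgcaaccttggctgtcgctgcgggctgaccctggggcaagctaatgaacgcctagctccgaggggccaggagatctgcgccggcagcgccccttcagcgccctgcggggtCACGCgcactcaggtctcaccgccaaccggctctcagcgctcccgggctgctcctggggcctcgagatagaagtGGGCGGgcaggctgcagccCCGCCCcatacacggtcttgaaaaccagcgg
Kdr (chr5:75978456-75978705, minus strand): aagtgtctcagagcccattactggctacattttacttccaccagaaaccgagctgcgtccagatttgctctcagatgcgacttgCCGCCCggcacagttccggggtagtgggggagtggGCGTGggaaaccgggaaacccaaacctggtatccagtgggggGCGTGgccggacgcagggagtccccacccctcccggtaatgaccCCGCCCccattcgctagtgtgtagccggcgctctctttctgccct
Flt1 (chr5:147726012-147726261, minus strand): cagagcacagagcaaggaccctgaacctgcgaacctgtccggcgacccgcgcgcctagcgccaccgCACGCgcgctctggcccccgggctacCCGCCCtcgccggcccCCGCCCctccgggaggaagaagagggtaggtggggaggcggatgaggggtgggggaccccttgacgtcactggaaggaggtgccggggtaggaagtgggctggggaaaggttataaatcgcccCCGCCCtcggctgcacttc
The Pgf window holds GCGTG in reverse, 124 bases before the start. Kdr holds it 131 and 89 bases before the start, and Flt1 in reverse 184 bases before. The Vegfa window holds neither ACGTG nor GCGTG, and a second annotated Vegfa start has GCGTG 218 bases and ACGTG in reverse 211 bases before it. A second annotated Pgf start has 0 of the 3 motifs. The windows of the second Vegfa start and of both Pgf starts lie inside the gene spans given above. The GC box occurs 2 times for Vegfa, Pgf and Kdr and 3 times for Flt1. Of all 32851 promoters in the table, 28.2% hold GCGTG, 16.6% hold ACGTG and 32.7% hold GGGCGG in the same 250 bases, so that these matches are common and are given as a description of the sequence.

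Among the gated classes Vegfa was most concentrated in CAF-like and monocyte-like cells, although melanoma-like cells held most of its UMIs. In CAF-like cells it stood at 100 (78.5 to 126, 72 UMIs) in WT and at 156 CPM in KO (131 to 184, 141 UMIs). In monocyte-like cells it stood at 83.8 (56.1 to 120) in WT and at 127 CPM in KO (82.3 to 188), on 29 and 25 UMIs. Macrophage-like cells were at 43.4 and 39.3 CPM, and melanoma-like cells at 30.4 and 34.0 CPM. Neighbours in that order whose intervals overlapped were CAF-like and monocyte-like cells in both libraries and macrophage-like and melanoma-like cells in KO. In endothelial-like cells Vegfa had 2 UMIs in WT and 0 in KO, where a count of 0 allows up to 35.2 CPM. Melanoma-like cells, the most numerous class and the deepest at medians of 11476 and 10952 UMIs, held 65.7% of the kept Vegfa UMIs in WT (62.5 to 68.8) and 64.7% in KO (61.7 to 67.5), against 77.4% and 80.6% of all UMIs. CAF-like cells held 7.96% of Vegfa UMIs in WT and 13.2% in KO with 2.84% and 3.58% of all UMIs.

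**Figure D1:**
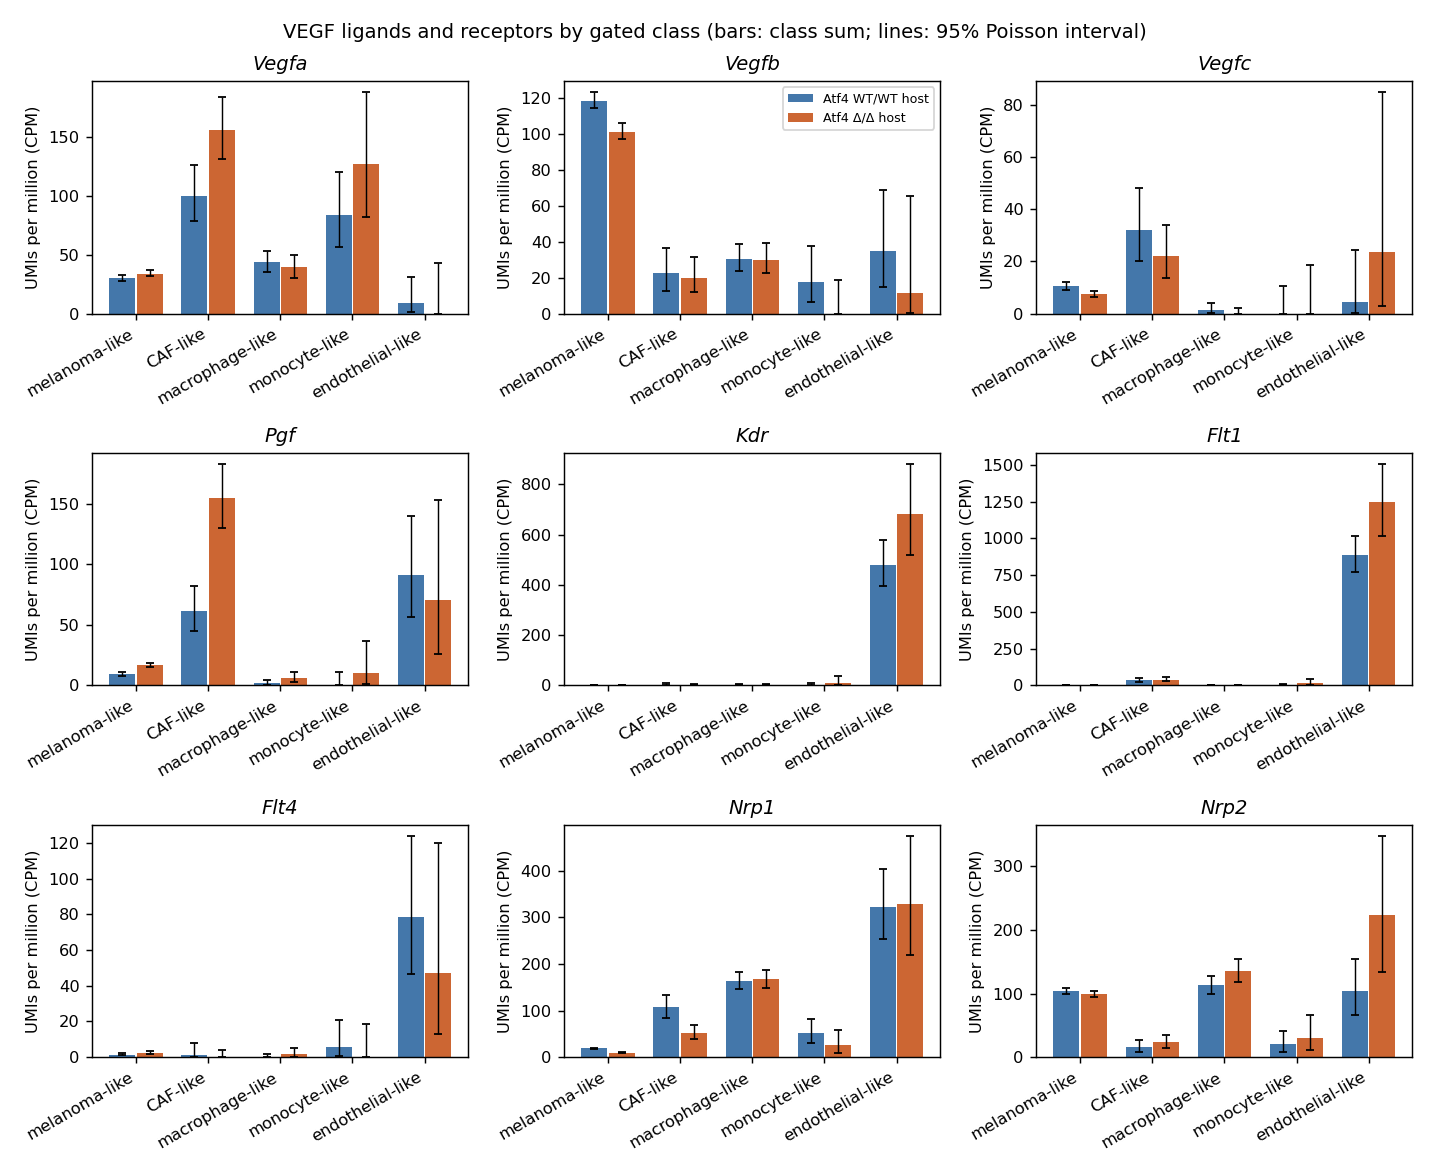
Level in CPM of each of the 9 genes (y axis, linear, its own range in each panel) in 5 gated classes (x axis) for the WT library (blue) and the KO library (orange), with exact 95% Poisson intervals. Kdr, Flt1 and Flt4 stand almost alone in endothelial-like cells, Vegfb is highest in melanoma-like cells at 118 and 101 CPM, and Pgf in CAF-like cells goes from 61.3 to 155 CPM.

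Vegfb, a ligand of Flt1 that is linked to metabolism more than to vessel sprouting, was highest in melanoma-like cells. It stood at 118 (114 to 123) in WT and at 101 CPM in KO (96.8 to 106) melanoma-like cells, which held 91.6% and 91.1% of its UMIs. CAF-like, macrophage-like, monocyte-like and endothelial-like cells lay between 11.7 and 34.8 CPM where it was detected, KO monocyte-like cells had 0 UMIs, and T/NK-like cells had 2 UMIs in WT and 0 in KO. Vegfc, the lymphatic ligand, was highest in WT in CAF-like cells, at 32.1 CPM (20.3 to 48.1), with 22.1 CPM in KO (13.5 to 34.1). In melanoma-like cells it was at 10.5 and 7.51 CPM. Its highest KO value, 23.5 CPM in endothelial-like cells, rests on 2 UMIs of 1 cell.

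Pgf (placental growth factor), which binds Flt1 and not Kdr, was high in 2 host classes and at a low mean level in melanoma-like cells. In CAF-like cells it was at 61.3 (44.6 to 82.3, 44 UMIs) in WT and at 155 CPM in KO (130 to 183, 140 UMIs). In endothelial-like cells it was at 91.4 (56.6 to 140, 21 UMIs) in WT and at 70.5 CPM in KO (25.9 to 153, 6 UMIs). In melanoma-like cells it was at 9.31 (8.01 to 10.8) in WT and at 16.7 CPM in KO (15 to 18.6). Pgf was carried by few cells. In WT 124 of 1693 melanoma-like cells held its 182 UMIs, and in KO 127 of 1826 held 340 UMIs, up to 22 in 1 cell. Nearly the same number of cells thus held more UMIs in KO. In CAF-like cells the 44 WT UMIs were in 12 of 185 cells and the 140 KO UMIs in 39 of 224 cells.

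On the receptor side, Kdr and Flt1 marked the endothelial-like cells, for which neither gene had been used as a marker. Kdr was at 479 (394 to 577, 110 UMIs) in WT and at 681 CPM in KO (517 to 881, 58 UMIs). Outside this class it did not exceed 3.17 CPM in melanoma-like, CAF-like or macrophage-like cells. Flt1 was at 888 (770 to 1019, 204 UMIs) in WT and at 1245 CPM in KO (1019 to 1506, 106 UMIs), with CAF-like cells next at 36.2 and 39.8 CPM. Thinned to 2000 UMIs per cell, Kdr was seen in 27 of 45 WT and 13 of 16 KO endothelial-like cells. In melanoma-like cells, which should lack it, thinned cells with a Kdr UMI were 0.122% in WT and 0 of 1776 in KO, which allows a share of up to 0.169%. This thinning left out 16 WT and 5 KO endothelial-like cells and 51 WT and 50 KO melanoma-like cells.

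Most endothelial-like cells carried both receptors. Without thinning, Kdr and Flt1 were detected together in 36 of 61 WT cells (59%, 45.7 to 71.4) and 16 of 21 KO cells (76.2%, 52.8 to 91.8). Flt1 alone was seen in 16 WT cells and 1 KO cell, Kdr alone in 4 and 1, and neither in 5 and 3. At median depths of 2758 and 3373 UMIs, a receptor not seen in a cell may be below detection. Nrp1 joined both receptors in 22 WT and 11 KO cells. Flt4 was at 78.3 (46.4 to 124, 18 UMIs) in WT and at 47 CPM in KO (12.8 to 120, 4 UMIs) endothelial-like cells. Melanoma-like cells, at only 1.43 and 2.6 CPM, held 28 of the 63 WT and 53 of the 65 KO Flt4 UMIs. Of the 6 lymphatic markers (Prox1, Lyve1, Pdpn, Mmrn1, Reln, Ccl21a), endothelial-like cells held 1 UMI in WT and 0 in KO. Flt4 was thus detected in an endothelial-like class nearly without lymphatic marker UMIs.

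The neuropilins were spread more widely. Nrp1 was highest in endothelial-like cells, at 322 (253 to 404) in WT and at 329 CPM in KO (219 to 475), followed by macrophage-like cells at 164 and 167 CPM. CAF-like cells were at 107 (84.7 to 134) in WT and at 51.9 CPM in KO (38.2 to 69). Macrophage-like cells held 34.6% of the WT and 47.2% of the KO Nrp1 UMIs. Nrp2 was shared by tumour and host. It stood at 104 and 99.1 CPM in melanoma-like cells, 113 and 135 CPM in macrophage-like cells, and 104 (66.9 to 155) and 223 CPM (134 to 348) in endothelial-like cells. Melanoma-like cells held 80.1% and 81.4% of its UMIs.

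The remaining pairs of gene and class were sparse. In monocyte-like cells Vegfc had 0 UMIs in both libraries, Pgf and Kdr each 0 in WT and 2 in KO, Flt1 0 and 3, Flt4 2 and 0, and Nrp2 7 and 6. In macrophage-like cells Vegfc had 3 UMIs in WT and 0 in KO, Pgf 4 and 10, Flt1 1 and 0, and Flt4 0 and 3. In CAF-like cells Flt4 had 1 UMI in WT and 0 in KO, and Nrp2 was at 15.3 and 23.2 CPM on 11 and 21 UMIs. In melanoma-like cells Flt1 had 7 UMIs in WT and 11 in KO. T/NK-like cells of the WT library held 2 UMIs of Vegfb, 1 each of Vegfa, Kdr, Nrp1 and Nrp2 and 0 of the other members, where 0 allows up to 73.5 CPM. Those of the KO library held 0 UMIs of every member, which allows up to 208 CPM.

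**Figure D2:**
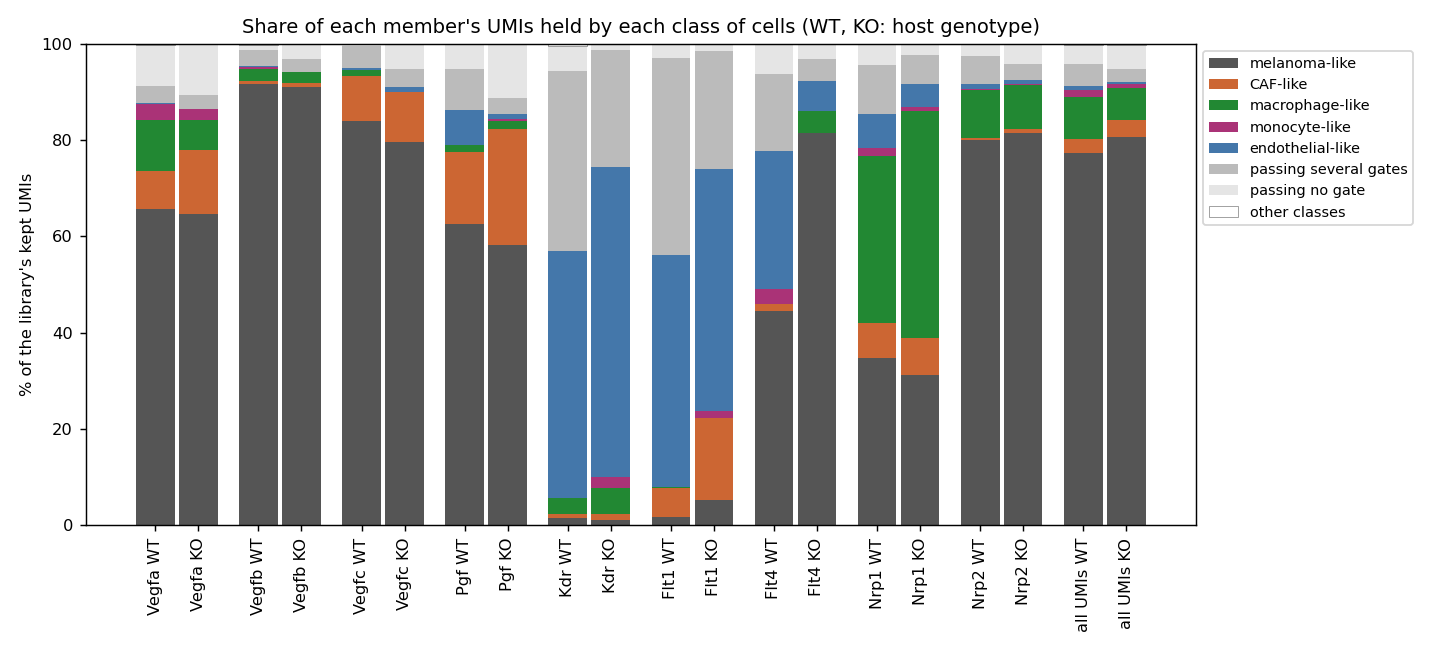
Percent of each gene's kept UMIs (y axis) held by each class of cells, with a pair of bars per gene for the WT and KO libraries and, at the right, the same for all UMIs. Ligand UMIs lie mostly in melanoma-like cells, Kdr and Flt1 UMIs in endothelial-like cells and in cells passing several gates, and Nrp1 UMIs in melanoma-like and macrophage-like cells.

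The 62 Flt1 UMIs of CAF-like cells were not evenly spread. Mural cells (pericytes and vascular smooth muscle) wrap vessels, and 40 of the 409 CAF-like cells showed at least 2 of 8 mural markers such as Rgs5 and Notch3. These held 38 of the Flt1 UMIs, in 16 cells, at 195 CPM (138 to 268), against 16.8 CPM (10.8 to 25) in the other 369, an 11.6-fold difference (6.79 to 20.3). Both libraries showed it, with 145 against 17.9 CPM in WT and 253 against 16 CPM in KO. The split was partial, since the 8 mural markers summed to 1398 CPM in the 40 cells and 447 CPM in the other 369. Endothelial-like cells held 483 CPM of these markers in WT and 658 CPM in KO. Kdr had 1 UMI in the 40 cells. Of the endothelial markers, Pecam1 and Cdh5 had 0 UMIs there, and the sum of all 12 was 242 CPM in mural and 197 CPM in the other CAF-like cells, against 7478 and 7952 CPM in WT and KO endothelial-like cells. Cells that passed the endothelial gate as well, 18 with the CAF gate, had been set aside, so that the gate itself limits endothelial markers here. The part of endothelial RNA in the mural Flt1 level was not tested. Vegfa was at 9.66 (1 UMI) in WT and at 176 CPM in KO (16 UMIs in 8 cells) mural cells.

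**Figure D3:**
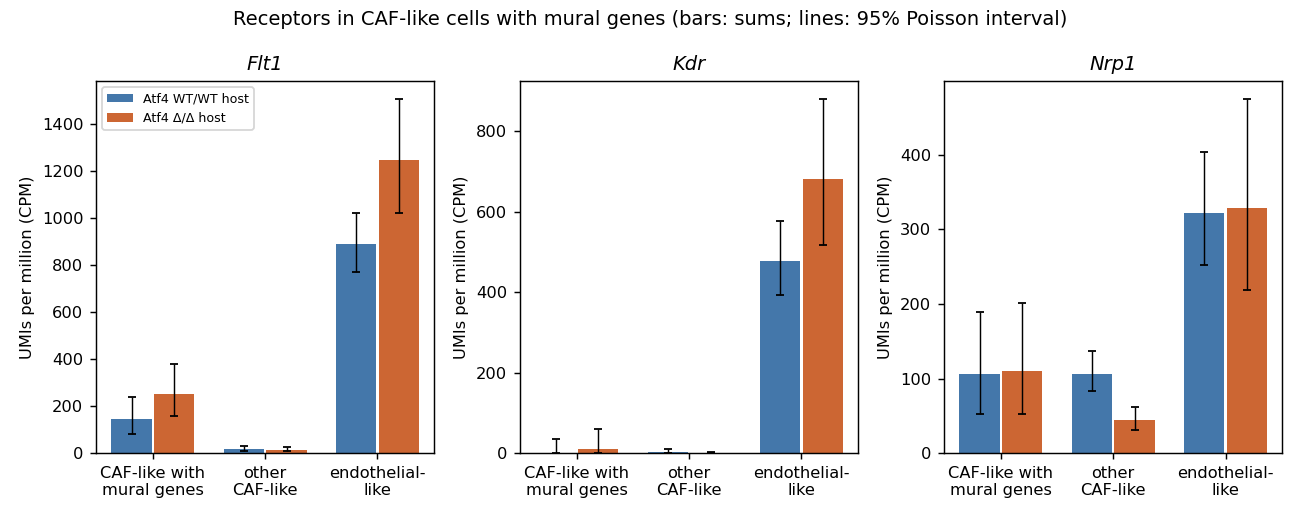
Level in CPM (y axis, linear) of Flt1, Kdr and Nrp1 in CAF-like cells with mural genes, in other CAF-like cells and in endothelial-like cells, for WT (blue) and KO (orange), with exact 95% Poisson intervals. Flt1 in mural CAF-like cells, at 145 and 253 CPM, lies between the other CAF-like cells and the endothelial-like cells, while Kdr is confined to the endothelial-like bars apart from 3 UMIs in CAF-like cells.

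The comparison of the host genotypes asks whether the signal or the receiving cells differ when the host lacks Atf4. Of 26 pairs of gene and class with at least 20 UMIs, 2 were more than 2-fold higher in KO and 3 were more than 2-fold lower. An interval that did not include 0 on the log2 scale was found for 11. The share of all genes with such an interval was not computed, so the 11 have no background to be read against. In CAF-like cells 1 of 7 members was past 2-fold higher and 1 lower, where 5.17% of all 7212 genes tested were higher and 5.89% lower. In melanoma-like cells 0 of 7 were higher and 1 lower, against 3.53% and 1.15% of 12223 genes. In endothelial-like cells 1 of 6 was higher and 0 lower, against 6.23% and 8.02% of 2457 genes. In monocyte-like cells 0 of 2 were higher and 1 lower, against 4.31% and 5.66% of 3410 genes, and in macrophage-like cells 0 of 4 moved either way, against 2.91% and 2.62% of 8864 genes. A share near these backgrounds says nothing particular of the members. The median log2 ratio of the members was 0.13 in CAF-like, -0.06 in melanoma-like and 0.26 in endothelial-like cells, and that of all genes tested was -0.04, 0.03 and -0.02.

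Among the ligands, Pgf and Vegfa were higher in KO CAF-like cells. For Pgf the log2 KO/WT ratio was 1.33 (0.84 to 1.86), and for Vegfa it was 0.63 (0.21 to 1.06). In the 151 WT and 58 KO CAF-like cells that held Xist but no Y-linked UMI, the ratios were 0.86 for Pgf and 0.32 for Vegfa. Pgf was also higher in KO melanoma-like cells, at 0.84 (0.58 to 1.11), while Vegfa there was at 0.16 (-0.00 to 0.32). Vegfc and Vegfb were lower in KO melanoma-like cells, at -0.48 (-0.79 to -0.17) and -0.23 (-0.32 to -0.14). Vegfa in macrophage-like cells was at -0.14 (-0.62 to 0.32), so that a difference was not detectable at this depth, and it was at 0.44 in the 609 WT and 72 KO cells with Xist and no Y-linked UMI. Monocyte-like cells were at 0.60 (-0.23 to 1.42). Over all kept cells Pgf was at 11.5 in WT and at 23.1 CPM in KO, and Vegfa at 35.8 and 42.3 CPM.

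Among the receptors, Nrp1 was lower in KO in melanoma-like and CAF-like cells. The log2 KO/WT ratio was -1.02 (-1.28 to -0.76) in melanoma-like cells, on 363 and 187 UMIs, and -1.05 (-1.60 to -0.51) in CAF-like cells, on 77 and 47 UMIs. In macrophage-like cells the same ratio was 0.03 (-0.20 to 0.25) and in endothelial-like cells 0.03 (-0.65 to 0.68). Monocyte-like cells had 18 and 5 UMIs and a ratio of -1.03 (-2.82 to 0.45). The macrophage-like interval did not overlap that of melanoma-like or CAF-like cells, and the difference between classes was not tested. Flt4 was higher in KO melanoma-like cells at 0.86 (0.17 to 1.58), from 1.43 to 2.6 CPM, which is a level of 53 UMIs in 1826 cells.

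**Figure D4:**
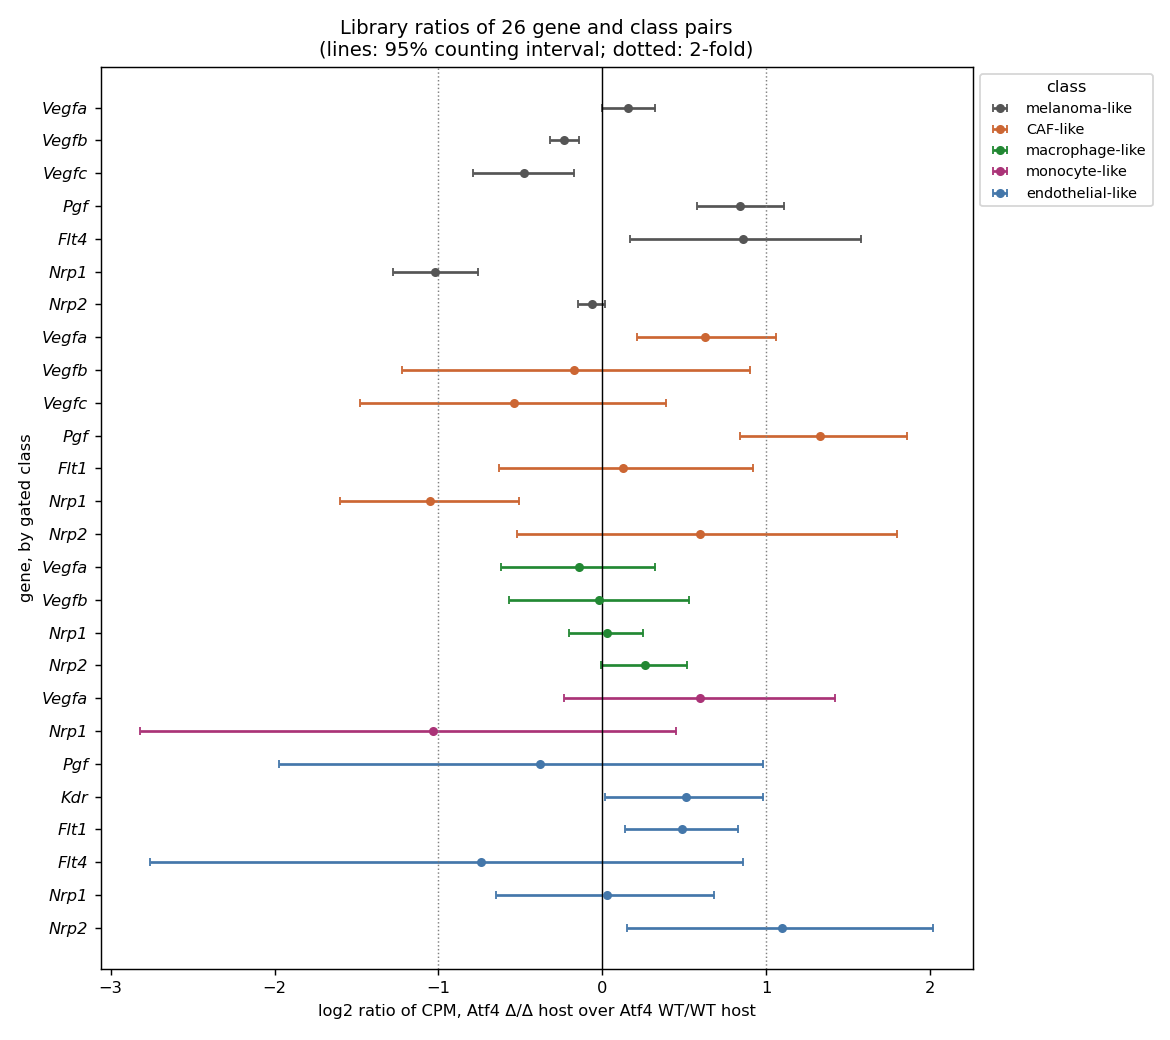
Log2 ratio of CPM in the KO over the WT library (x axis) for the 26 pairs of gene and class with at least 20 UMIs (y axis, colour by class), with exact 95% counting intervals. The solid line marks no difference and the dotted lines 2-fold. Pgf in CAF-like cells (1.33) and Nrp2 in endothelial-like cells (1.10) lie past 2-fold on the right, and Nrp1 in melanoma-like, CAF-like and monocyte-like cells on the left.

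In endothelial-like cells Kdr, Flt1 and Nrp2 had a higher level in KO, while fewer endothelial-like cells were found. Of the 6 members measured there only Nrp2 passed 2-fold, beside 6.23% of all 2457 genes that were higher. The log2 KO/WT ratio in endothelial-like cells was 0.51 for Kdr (0.02 to 0.98), 0.49 for Flt1 (0.14 to 0.83) and 1.10 for Nrp2 (0.15 to 2.02). For Nrp1 it was 0.03 (-0.65 to 0.68) and for Flt4 -0.74 (-2.76 to 0.86). The KO side of these ratios comes from 21 cells. In the 47 WT and 8 KO of these cells that held Xist but no Y-linked UMI, the ratios were -0.07 for Kdr, 1.04 for Flt1 and -0.02 for Nrp2, so the direction for Kdr and Nrp2 did not hold there. With a looser endothelial gate Flt1 was at 0.10 and Nrp1 at -0.70. Endothelial-like cells were 1.58% of kept cells in WT (1.21 to 2.02) and 0.59% in KO (0.366 to 0.901), a log2 ratio of -1.42 (-2.21 to -0.68). As a share of gated host cells they were 4.29% and 1.9%. Counting also the 19 WT and 5 KO cells that passed the endothelial gate together with another, the ratio was -1.50 (-2.20 to -0.85). In the whole libraries Kdr was at 8.48 in WT and at 3.56 CPM in KO, a log2 ratio of -1.25 (-1.62 to -0.89). For Flt1 the levels were 16.8 CPM for WT and 8.35 CPM for KO, or -1.01 as log2 ratio (-1.25 to -0.77). In such whole-library sums fewer endothelial cells and less receptor RNA per cell cannot be told apart. Each library was 1 dissociation of pooled tumours, and the number of cells recovered from it has no replicate.

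Vegfa and Pgf followed hypoxia genes from cell to cell. Cells of each class were ranked by their summed level of 18 hypoxia-response genes, without Vegfa and Pgf, and cut into tertiles over both libraries. The sum follows the most abundant genes of the list. In WT melanoma-like cells Ldha gave 43680 and Mif 43057 of the 207974 list UMIs. Slc2a1 (a glucose transporter) gave 1084 and Car9 (a carbonic anhydrase) 1131. In melanoma-like cells Vegfa went from 9.26 CPM in the lowest to 67.7 CPM in the highest tertile in WT, a log2 ratio of 2.87 (2.47 to 3.29), and from 13.4 to 67 CPM in KO, 2.32 (2.0 to 2.65). In CAF-like cells it went from 28.1 to 359 CPM in WT and from 81.2 to 222 CPM in KO, and in macrophage-like cells from 13.6 to 95.3 and from 8.49 to 73.8 CPM. Vegfa thus had its highest level in the highest tertile in these 3 classes and both libraries. In monocyte-like cells the log2 ratio was 0.38 (-0.96 to 1.73) in WT, with 83.8, 61.3 and 109 CPM from the lowest tertile up, and 2.19 (0.09 to 5.36) in KO, so that no gradient was detectable in WT at this depth. Pgf was steeper. In melanoma-like cells it stayed near 2 CPM in the lower tertiles and reached 26.6 CPM in WT and 47.2 CPM in KO in the highest. In CAF-like cells it went from 5.62 to 307 CPM in WT and from 32.5 to 281 CPM in KO.

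Nrp1 went the other way. In melanoma-like cells it was at 25.9 CPM in the lowest and 11.1 CPM in the highest tertile in WT (log2 ratio -1.22, -1.66 to -0.79), and at 11.1 and 5.73 CPM in KO (-0.95, -1.55 to -0.38). In CAF-like cells it was at 132 and 15 CPM in WT (-3.14, -6.23 to -1.21) and at 97.5 and 30.5 CPM in KO (-1.68, -2.90 to -0.43). Vegfb was slightly lower in the highest tertile of melanoma-like cells, at -0.20 (-0.35 to -0.04) in WT and -0.20 (-0.36 to -0.05) in KO. Nrp2 was higher in the highest tertile of melanoma-like cells, at 0.62 (0.46 to 0.78) in WT and 0.53 (0.38 to 0.68) in KO. Median depth was 12404 UMIs in the lowest and 10197 UMIs in the highest tertile of WT melanoma-like cells, and its part in these gradients was not tested.

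**Figure D5:**
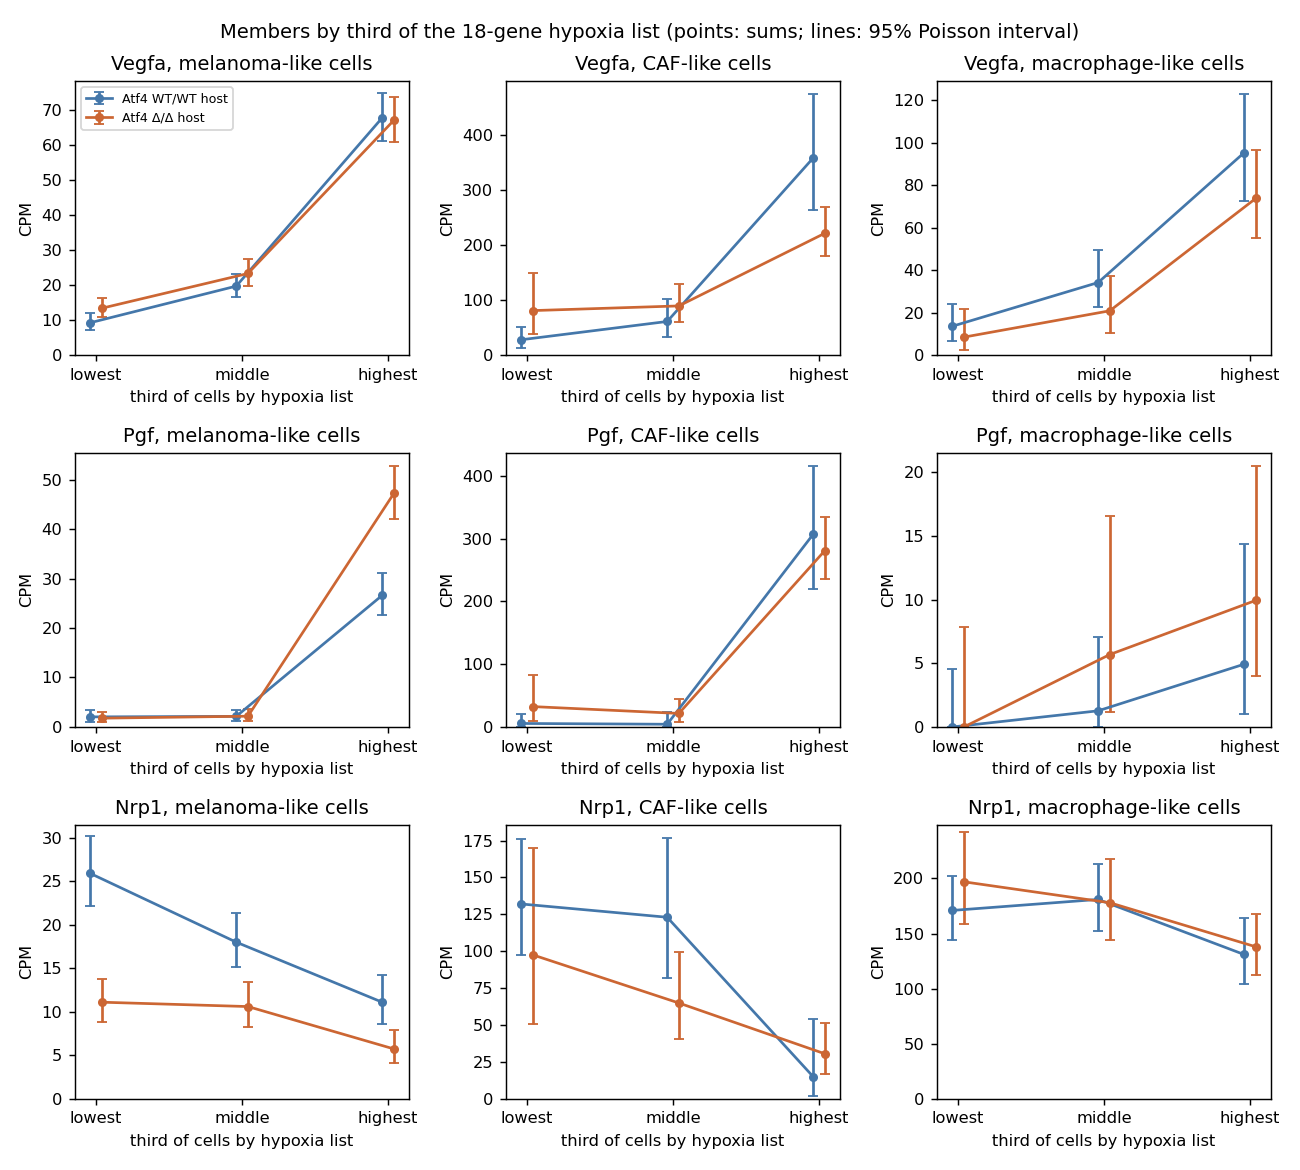
Level in CPM (y axis, linear) of Vegfa, Pgf and Nrp1 (rows) in the lowest, middle and highest tertile of cells by hypoxia list (x axis) for melanoma-like, CAF-like and macrophage-like cells (columns), WT in blue and KO in orange, with exact 95% Poisson intervals. Vegfa and Pgf are highest in the highest tertile in every panel and Nrp1 is lowest there, although Pgf in macrophage-like cells rests on 4 UMIs in WT and 10 in KO, and in melanoma-like cells the KO line for Nrp1 lies under the WT line throughout.

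KO CAF-like cells lay further up the hypoxia ranking. The highest tertile held 105 of 224 KO (46.9%, 40.2 to 53.6) and 32 of 185 WT CAF-like cells (17.3%, 12.1 to 23.5). For macrophage-like cells the shares were 40.8% in KO and 27.4% in WT, and for melanoma-like cells 34.4% and 32.1%. Within the highest tertile of CAF-like cells Vegfa was lower in KO, with a log2 KO/WT ratio of -0.69 (-1.20 to -0.17), and Pgf was at -0.13 (-0.64 to 0.42). Within the lowest it was higher for Vegfa, at 1.53 (0.11 to 2.95), on 10 UMIs in each library. The higher mean of Vegfa and Pgf in KO CAF-like cells was thus not seen within the tertile that holds most of their UMIs. This was so for tertiles cut over both libraries. With tertiles cut within each library the highest one held 229 CPM of Vegfa in WT against 289 in KO, and 157 against 385 CPM of Pgf. Those tertiles start at a different hypoxia level in each library, so they do not compare cells of like level. In melanoma-like cells the Pgf ratio within the highest tertile was 0.83 (0.54 to 1.11), and Nrp1 was lower in KO in all 3 tertiles, at -1.23, -0.77 and -0.96. In CAF-like cells Nrp1 was at -0.44 (-1.49 to 0.50) in the lowest and -0.92 (-1.81 to -0.05) in the middle tertile. In the highest CAF-like tertile it was at 1.03 (-1.09 to 4.21), on 2 WT and 14 KO UMIs. A lower Nrp1 level in KO CAF-like cells was thus not seen in every tertile.

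The hypoxia-response list was itself higher in KO CAF-like and macrophage-like cells. In CAF-like cells 6 of 17 measured genes were more than 2-fold higher and 0 lower, with a median log2 ratio of 0.98 beside -0.04 for all genes, of which 5.17% were higher and 5.89% lower. The list genes with most UMIs there were Mif at 0.99, Ldha at 0.80, Pgk1 at 1.0 and Aldoa at 0.57, where the last 3 are enzymes of glycolysis and lactate production. In macrophage-like cells 7 of 18 were higher and 0 lower (median 0.70), beside 2.91% and 2.62% of all genes. In monocyte-like cells 2 of 12 were higher and 0 lower (median 0.44), beside 4.31% and 5.66%. In endothelial-like cells 0 of 7 passed 2-fold (median 0.22), beside 6.23% of all genes higher and 8.02% lower. The summed list there was at 0.09 (-0.11 to 0.29). In melanoma-like cells 0 of 18 passed 2-fold (median 0.06), beside 3.53% of all genes higher and 1.15% lower. Counts of 0 among so few genes are near these backgrounds. Of the hypoxia regulators 2 of 6 were higher and 0 lower past 2-fold in KO CAF-like cells, with a median of -0.01. The 2 were Hif1a (a subunit of hypoxia-inducible factor) at 1.01 (0.67 to 1.36) and Egln1 (an oxygen sensor that marks it for decay) at 1.29 (0.88 to 1.73). Epas1 was at -0.48, Arnt at -0.45 and Vhl at -0.34, each with an interval that included 0. In melanoma-like cells 0 of 7 regulators passed 2-fold, beside 3.53% and 1.15% of all genes, and Hif1a was at -0.00 there.

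Related ligands and coreceptors were read next. In CAF-like cells 2 of 6 were higher in KO and 0 lower (median 0.39), beside 5.17% and 5.89% of all genes. These were Vegfd, a further ligand of Flt4, from 59.9 to 120 CPM (1.01, 0.49 to 1.55), and Sema3a, a ligand of Nrp1, on 5 and 15 UMIs (1.25, -0.28 to 3.06). In melanoma-like cells 1 of 7 was higher (median -0.12), beside 3.53% of all genes, namely Sema3c, from 0.819 to 4.51 CPM. In endothelial-like cells 0 of 3 passed 2-fold, beside 6.23% and 8.02% of all genes. The Nrp1 partner Plxnd1 was at 287 and 164 CPM there (-0.80, -1.75 to 0.04). Sema3a and, in melanoma-like cells, Sema3c were named after their values were seen.

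Genes downstream of the receptors were read in the endothelial-like cells. Of 16 endothelial response genes, a list that includes Pgf, 12 had at least 20 UMIs, of which 3 were more than 2-fold higher in KO and 2 lower (median 0.12), beside 6.23% and 8.02% of all genes. Higher were Angpt2, a ligand of Tie2 released in vessel remodelling, from 87.1 to 341 CPM (1.97, 1.10 to 2.87), Nr4a1, an early response gene, from 95.8 to 317 CPM (1.73, 0.86 to 2.61), and Apln (apelin, a tip cell peptide), from 200 to 446 CPM (1.16, 0.50 to 1.81). Lower were its receptor Aplnr, from 361 to 176 CPM (-1.04, -1.94 to -0.23), and Mmp14, on 27 and 4 UMIs (-1.32, -3.30 to 0.20). The response genes with most UMIs, Igfbp3 and Hspg2, did not pass 2-fold, at -0.01 (-0.28 to 0.25) and 0.94 (0.45 to 1.42). Of 16 carriers of the VEGF signal 9 were measured, with 0 higher and 1 lower (median -0.26), against the same background. The one that was lower was Ptk2 (focal adhesion kinase), on 24 and 3 UMIs (-1.57, -3.94 to 0.15). Cdh5, the junction cadherin, had most UMIs, at 1088 and 1315 CPM (0.27, -0.06 to 0.60). Hsp90aa1, Cav1 and Ptprb followed, at -0.26 (-0.70 to 0.15), -0.47 (-0.92 to -0.03) and 0.38 (-0.30 to 1.04). Nos3 was at 69.6 and 129 CPM (0.89, -0.36 to 2.09). Cdh5 and Ptprb are also markers of the endothelial gate, so the gate bears on their levels here. Angpt2, Nr4a1, Mmp14, Ptk2 and Nos3 were named after their values were seen.

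Genes whose level followed a member most closely were ranked by Pearson's r over 12 points, 6 classes in 2 libraries, among 10091 genes. For Kdr they were Rbp7, Emcn, Tmod3, Kank3 and S1pr1 (r of 0.92 to 0.87). Emcn is also a marker of the endothelial gate, so the gate bears on its rank. For Vegfa they were Gas7, Itch, Frs2, Kmt2c and Rhoq (0.94 to 0.93), and for Pgf they were Gm13889, Tcaf1, Farp1, Trim39 and Fam171a1 (0.97 to 0.95). The points share libraries and differ in depth, T/NK-like cells hold under 3 UMIs of each member per library, and these values are descriptions.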

How the data were processed

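Single-cell 3' RNA sequencing was done on 2 libraries, 1 per host genotype. Raw UMI counts for every gene in each barcode were deposited as matrices, made by the authors with Cell Ranger 3.1.0 on GRCm38, and the submitters' notes also name Seurat 3.2.1. Depth was 38417113 UMIs in 6304 WT and 38290024 UMIs in 5474 KO barcodes. Labels and methods name different versions of the kit.

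The study's own filter was applied, 200 to 5000 detected genes with a mitochondrial share of at most 7.5%. Markers of 9 classes gated the cells, with no member among them. Thresholds of detected markers were set from marker counts alone, after the files had been seen. Cells passing several gates were left out of the classes, except that a cell passing the macrophage and the monocyte gate was a macrophage. Doublets were called (Scrublet) for an alternative alone. The members, gene lists and markers were chosen with earlier results of these data known. Gates depend on depth, and cells passing none had a median of 1258 UMIs against 3920 and 6279 for all kept WT and KO cells. Free melanoma RNA was estimated from 4 pigment genes at 3.88% to 12.9% of UMIs in CAF-like, macrophage-like, monocyte-like and endothelial-like cells.

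For each class of a library, UMIs were added up and divided by all UMIs of those cells (CPM). Intervals were exact Poisson for levels, Clopper-Pearson for shares and conditional binomial for ratios, at 95%. For ratios a count of 0 was set to 3, and no ratio was given where both counts were 3 or less. Ratios past 2-fold were counted among genes with at least 20 UMIs. All 9 members are named in every class of at least 50 cells, list genes mainly by most UMIs. The ratio step was tested on simulated counts. Tools were Python 3.11.15, numpy 2.4.6, scipy 1.17.1, scanpy 1.11.5, R 4.3.3 and edgeR 4.0.16. Alternatives were other filters, gates, clusters, scalings, free RNA subtraction, doublet removal, thinning, cells with Xist and no Y-linked UMI and other splits of the hypoxia ranking.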

Additional observations from a re-analysis of the deposited data

Results flagged for a closer look

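Pgf was also measured in cells outside the comparisons above. In kept cells that passed no gate it was at 50.6 CPM in KO (39 to 64.4, 65 UMIs in 553 cells) and 15.6 CPM in WT (8.72 to 25.7, 15 UMIs in 642 cells). In barcodes removed by the filters it was at 24.9 CPM in KO (22.3 to 27.8) and 12.1 CPM in WT (10.3 to 14.1). Both were picked out because the KO interval lay above the WT interval in cells that entered no class. The cells that passed no gate are part of the sums over all kept cells, and some removed barcodes entered the alternatives with wider filters. They come from the same 2 libraries and are not a replicate.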

How the results depend on the processing

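No paired analysis was possible because the labels give 1 library for each genotype. For the main ratios, the endothelial share and the Vegfa tertiles, 100 recomputed values stayed inside the counting interval of the reported value. Another 6 moved out of it, and 1 changed sign from a ratio whose interval did not include 0. Vegfa in macrophage-like cells, among the 6, also changed sign, from a ratio whose interval included 0. In cells with Xist and no Y-linked UMI, Kdr in endothelial-like cells changed sign to -0.07 and Nrp2 to -0.02, Flt1 moved to 1.04, and Vegfa in macrophage-like cells moved to 0.44. With the stricter gate Pgf in melanoma-like cells moved to 0.57, and with the looser gate Flt1 in endothelial-like cells moved to 0.10. With 2 equal parts in place of tertiles the Vegfa gradient in melanoma-like cells was 2.23 in WT and 1.84 in KO. The cause of these moves was not tested. Over all alternatives the log2 ratio ranged from 0.86 to 1.51 for Pgf and 0.32 to 0.73 for Vegfa in CAF-like cells, from -1.07 to -1.0 and -1.24 to -0.79 for Nrp1 in melanoma-like and CAF-like cells, and from -1.54 to -1.17 for the endothelial share. Of the other values 700 stayed inside, 133 moved and 1, the Nrp2 ratio above, changed sign. Among the 133 were 52 shares of cells with a UMI at another depth and 27 CPM values without mitochondrial and ribosomal protein genes. CAF-like ratios without mural cells, the share of host cells and cells passing several gates were alternatives chosen after seeing the data. Depth limits the small classes, with 85139 UMIs in KO endothelial-like cells and 14436 UMIs in KO T/NK-like cells.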
